A study of Mus musculus with 4 samples.

Results

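Neurexins, neuroligins and LRRTMs are cell adhesion proteins that join the presynaptic and postsynaptic membranes of a synapse. The genes described here are Nrxn2 and Nrxn3, Nlgn1, Nlgn2 and Nlgn3, and Lrrtm1, Lrrtm2, Lrrtm3 and Lrrtm4. The genes were chosen with earlier results of these data known, and their probesets by gene symbol alone. Every probeset (a set of array probes read as 1 value) whose only annotated symbol is one of these 9 genes was taken. This gave 26 of the 45101 probesets on the array, 7 for neurexins, 7 for neuroligins and 12 for LRRTMs. The tissue was hippocampus of male DBA/2J mice, an inbred strain, aged 8 to 10 weeks per the labels. The fluoxetine group drank water that delivered 18 mg/kg of fluoxetine, a serotonin reuptake inhibitor, per day for 21 days, and the control group drank untreated water for the same 21 days (0 mg/kg). Each group had 12 mice, whose RNA was pooled 6 mice at a time, and each of the 2 pools was measured on 1 Affymetrix Mouse Genome 430 2.0 array, so that n is 2 pools per group and the spread between single mice is not seen. The question put to these genes was whether their transcripts in hippocampus change with chronic fluoxetine.

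Neurexins sit on the presynaptic membrane and bind, across the cleft, to neuroligins and LRRTMs on the postsynaptic side. Inside the cell, neurexins recruit scaffold proteins such as CASK, while neuroligins recruit PSD-95 at excitatory synapses and gephyrin at inhibitory ones. Neuroligin 1 is found mainly at excitatory synapses, neuroligin 2 mainly at inhibitory synapses and neuroligin 3 at both. LRRTMs are leucine-rich repeat proteins of excitatory synapses. In the mouse hippocampus LRRTM4 is best known from dentate granule cells, where it also binds heparan sulfate chains of glypicans and neurexins.

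None of these genes passed the test for a fluoxetine effect, but 3 of the 9 were lower in both fluoxetine pools than in both control pools at 2 or more probesets each. Such separation was no more common here than on the whole array: it held at 7 of 21 tested probesets (33.3%), against 34.2% of all 16938. The 3 genes were Nlgn3 (2 of 2 tested probesets), Lrrtm4 (2 of 2) and Lrrtm1 (2 of 3). Their log2 differences at those 6 probesets ran from -0.50 to -0.28, so that the control level was 1.21- to 1.41-fold that of the fluoxetine pools. Nrxn2, Nlgn1 and Nlgn2 had only 1 tested probeset each, so they could not reach 2. At that of Nrxn2 both fluoxetine pools were also the lower ones, by a log2 difference of -0.04. How many genes of the whole array separate at 2 or more probesets was not counted. Nrxn2, Nrxn3, Nlgn1, Nlgn2, Lrrtm2 and Lrrtm3 had mean log2 differences over their tested probesets between -0.08 and 0.10.

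An intensity of 100 is the submitters' minimum for expression above background, and only probesets with 2 or more of the 4 arrays at 100 or above entered the test. Of the 26 probesets 21 did, and each of the 21 reached that minimum in at least 1 array of each group. By limma, 0 of 21 had a Benjamini-Hochberg adjusted p under 0.05, against 1.72% of all 16938 tested probesets (291), 1.03% being higher and 0.685% lower. At an unadjusted p under 0.05 there were 5 of 21 (23.8%), all lower in fluoxetine pools, against 22.5% of all tested probesets, 13.9% being lower. The submitters' 2-fold rule took 0 of 21, against 0.791% of all. The groups did not overlap at 9 of 21 probesets (42.9%), 7 lower and 2 higher, against 56.0% of all tested probesets, 34.2% lower and 21.9% higher. The median log2 difference was -0.03 over the 21 probesets and -0.04 over all tested. Among 21 probesets even 1 would exceed a share of 1.72% or 0.791%. The counts of 0 called and 0 at 2-fold thus set no contrast with the whole array. The share without overlap was below that of the whole array, and the share at an unadjusted p under 0.05 was close to it. Its split by direction leaned lower, as that of the whole array did to a lesser degree. The 5 probesets came from Nlgn3 (2), Lrrtm1 (2) and Lrrtm4 (1). Probesets of 1 gene on the same arrays are not independent, so this lean is a description only. Of the 291 called probesets 2 had an absolute log2 difference under 0.5, with a median of 0.79 over the 291, and all of the 21 were under 0.5. With any one array left out, 0 of all tested probesets were called by limma, so every call of a rise or fall given here was lost.

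Median intensities of the 4 arrays lay between 22.6 and 23.3, and 16651 to 16905 probesets per array reached 100. The 18 control probesets of the bio and cre spike-ins, RNA that goes into every sample at a set dose, read higher in the fluoxetine arrays. The groups did not overlap at any of the 18, and the median log2 difference was 0.36. Other Affymetrix control probesets were not examined. Of 10 hippocampal principal cell markers 10 were tested, among them Prox1 of granule cells and Fibcd1 and Wfs1 of CA1. Of the markers of striatum 2 of 4 annotated genes were tested, of thalamus 3 of 5 and of choroid plexus 2 of 8, and 0 of these 7 passed by limma, with 2 at an unadjusted p under 0.05. These were Ppp1r1b of striatum, at 187 and 217 in fluoxetine pools, against 130 and 126 in control pools (log2 0.66 ± 0.10, adjusted p = 0.0590), and Prkcd of thalamus (log2 0.56 ± 0.18, adjusted p = 0.179). The striatal markers summed to 1859 to 2583 in fluoxetine pools and 2048 to 2191 in control pools, and the thalamic ones to 1078 to 1139 in fluoxetine pools and 962 to 1047 in control pools. The part of these regions in the values of the neurexin, neuroligin and LRRTM genes was not tested. Transthyretin (Ttr), made by the choroid plexus, stood at 51101 and 4429 in fluoxetine pools 1 and 2, against 37856 and 2002 in control pools 1 and 2. Ttr thus differed more between the pools of a group than between the groups.

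Neither neurexin gene passed the test, and the differences at their brighter probesets were near 0. Nrxn2 had an intensity of 219 and 215 in the fluoxetine pools, against 222 and 223 in the control pools (1435907_at). The groups did not overlap, but the log2 difference was only -0.04 ± 0.06 (SE, n = 2 pools per group, limma adjusted p = 0.767), with a 95% interval of -0.20 to 0.13. A second Nrxn2 probeset was near the floor of the normalization, between 6.07 and 6.20 in all 4 arrays.

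Nrxn3 was read by 5 probesets, of which 4 were tested. The brightest, 1433788_at, had 2550 and 2791 in fluoxetine pools, against 2824 and 2637 in control pools (log2 -0.03 ± 0.08, adjusted p = 0.845). 1438193_at had 1590 and 1739 in fluoxetine pools, against 1711 and 1593 in control pools, and 1456137_at had 1207 and 1418, against 1353 and 1261. At all 3 the pools of the groups interleaved, and the 95% intervals of the log2 difference lay between -0.27 and 0.27. The remaining tested probeset, 1439629_at, had 197 and 235 in fluoxetine pools, against 133 and 207 in control pools. Its log2 difference of 0.38 ± 0.23 (adjusted p = 0.396) was smaller than the gap of 0.64 between the 2 control pools, and its interval ran from -0.23 to 0.98. It was 0.06 without control pool 1 and 0.70 without control pool 2. At this probeset pool 1 was the lower pool in both groups, the pools in which Ttr was highest; the part of that tissue in these values was not tested. The untested Nrxn3 probeset lay between 33.6 and 40.3. Which neurexin isoforms the probesets match was not analysed here.

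**Figure D1:**
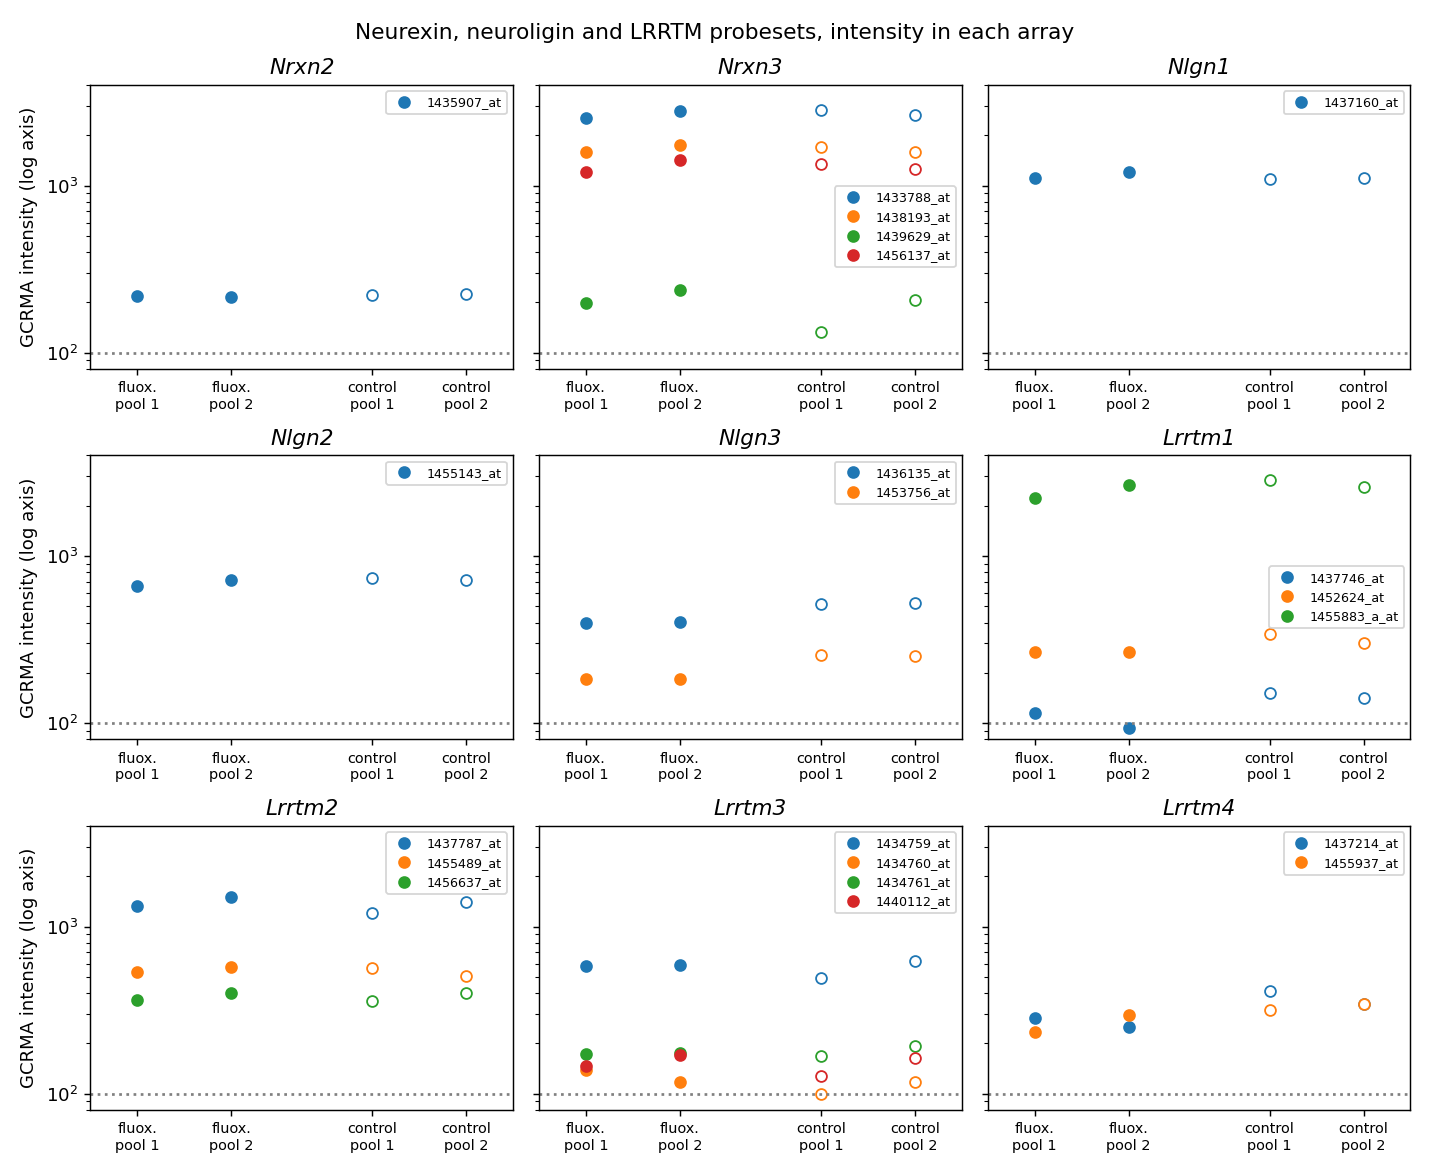
Deposited GCRMA intensity (log axis) of the 21 tested probesets in the 2 fluoxetine pools (filled, left) and the 2 control pools (open, right), with 1 panel per gene and 1 colour per probeset; the dotted line marks the intensity minimum of 100. At Nlgn3 both fluoxetine pools lie below both control pools at 399 and 184 against 519 and 253 (geometric means), while at Nrxn3 and Lrrtm2 the groups interleave.

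Among the neuroligins, Nlgn3 was the gene with the clearest separation of groups. At 1453756_at it had 183 and 185 in the fluoxetine pools, against 255 and 251 in the control pools. At 1436135_at it had 398 and 401 in the fluoxetine pools, against 515 and 524 in the control pools. At both probesets the pools within a group nearly coincided, differing by 0.01 (fluoxetine) and 0.03 or less (control) on the log2 scale, and the fluoxetine pools were the lower ones. The log2 difference was -0.46 ± 0.06 at 1453756_at (95% interval -0.63 to -0.29, limma adjusted p = 0.0537) and -0.38 ± 0.06 at 1436135_at (-0.55 to -0.21, adjusted p = 0.0707). Unadjusted p was 0.00102 and 0.00233, ranks 320 and 554 of 16938, so neither passed over all probesets. The call at 1453756_at turned with the filter: with only probesets that reached 100 in all 4 arrays tested, its adjusted p was 0.0498. The remaining Nlgn3 probeset, under the minimum at 34.2 and 33.9 in fluoxetine pools, against 36.1 and 27.3 in control pools, was not tested.

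Nlgn1 and Nlgn2 each had 1 tested probeset. Nlgn1 had 1113 and 1212 in fluoxetine pools, against 1100 and 1109 in control pools (1437160_at). The fluoxetine pools were the higher ones by a log2 difference of 0.07 ± 0.07 (95% interval -0.12 to 0.27, limma adjusted p = 0.606). Nlgn2 had 666 and 719 in fluoxetine pools, against 743 and 716 in control pools (1455143_at), with fluoxetine pool 2 inside the control range. Its log2 difference was -0.08 ± 0.07 (95% interval -0.27 to 0.12, adjusted p = 0.591). The other Nlgn1 and Nlgn2 probesets were at the floor, between 4.31 and 4.93 in every array.

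In the mouse Nlgn3 is transcribed in neurons and in glia, and in bulk RNA fewer cells of a type and less RNA per cell cannot be told apart. Markers of neurons had a summed intensity of 113431 to 114158 in fluoxetine pools and 112001 to 113563 in control pools, with 10 of 10 tested, of which Nefm, a neurofilament subunit, rose (log2 0.55 ± 0.07, limma adjusted p = 0.0445). Astrocyte markers (10 of 10 tested) summed to 75719 to 79169 in fluoxetine pools and 66733 to 69221 in control pools. The widest was Gfap, at 3222 and 2606 in fluoxetine pools, against 461 and 385 in control pools (log2 2.78 ± 0.14, limma adjusted p = 0.0172). Aqp4 was at log2 1.07 ± 0.08 (adjusted p = 0.0262), and 3 of the 10 astrocyte markers lay below 0. Microglia markers (9 of 10 tested) summed to 11369 to 11795 in fluoxetine pools and 7112 to 7348 in control pools. Markers of the oligodendrocyte lineage (9 of 9 tested) summed to 57613 to 57974 in fluoxetine pools and 60411 to 60615 in control pools. Endothelial and mural markers (8 of 10 tested) summed to 5562 to 5685 in fluoxetine pools and 4283 to 4356 in control pools. At each gene's brightest tested probeset 2 astrocyte, 5 microglia and 2 endothelial or mural markers rose and 0 fell, against 1.86% of all 9030 genes so counted that passed in either direction. Of the oligodendrocyte markers 0 passed by limma, with 1 at an unadjusted p under 0.05. No marker was at 0, since GCRMA values have a floor above 0, and the part of these cell types in the Nlgn3 values was not tested.

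**Figure D2:**
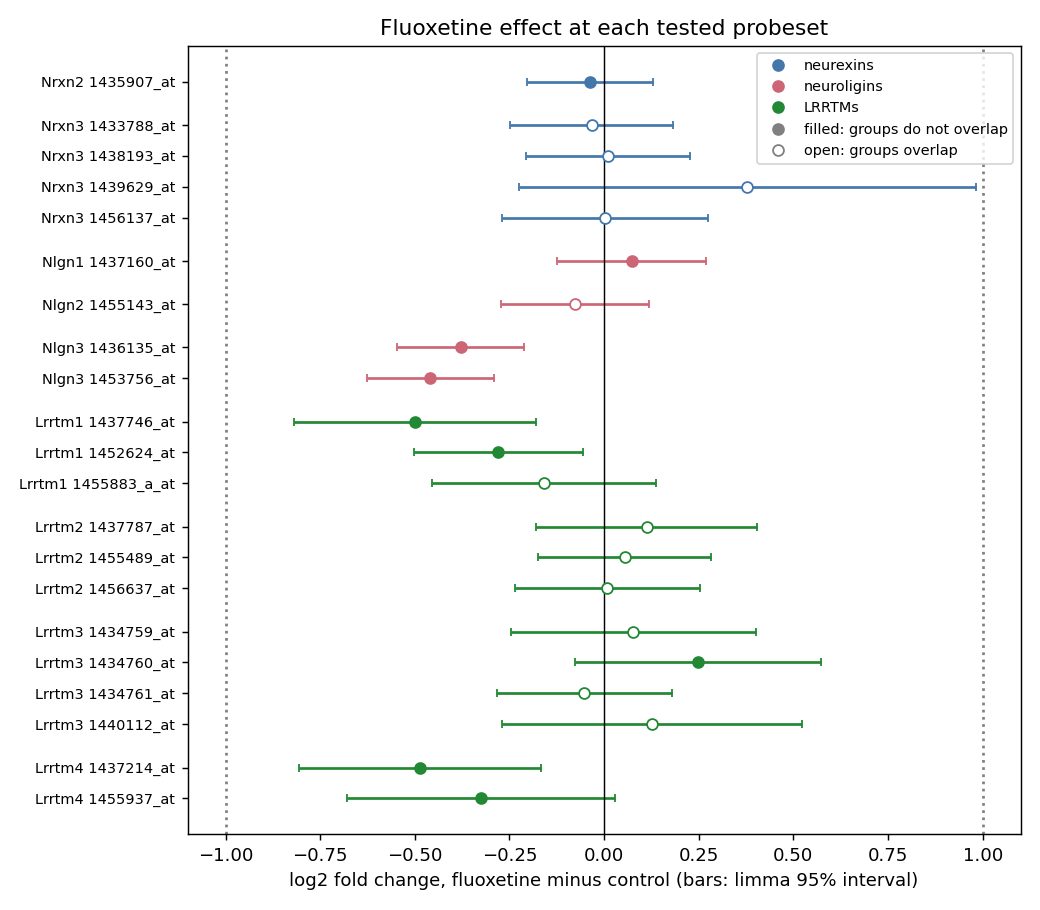
Log2 fold change (fluoxetine minus control, x axis) of each tested probeset with its limma 95% interval; filled points mark probesets whose groups do not overlap, and dotted lines mark a 2-fold difference. The intervals of both Nlgn3 probesets, 2 Lrrtm1 probesets and 1 Lrrtm4 probeset lie wholly below 0, and no interval crosses a 2-fold difference.

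No LRRTM probeset passed the test. Both fluoxetine pools lay below both control pools at 2 of 3 tested Lrrtm1 probesets and at 2 of 2 for Lrrtm4, and the log2 differences of Lrrtm2 and Lrrtm3 ran from -0.05 to 0.25. Lrrtm1, Lrrtm2 and Lrrtm3 each lie inside an alpha-catenin gene (Ctnna2, Ctnna1 and Ctnna3) in the RefSeq gene table, while Lrrtm1 and Lrrtm4 share chromosome 6. The 250 bases before each annotated start are shown for Lrrtm1 and Lrrtm4, the LRRTM genes with probesets at which both fluoxetine pools lay below both control pools, and for Lrrtm3 as a family member that did not separate in that way. They are RefSeq sequences of build GRCm38.p6, from the C57BL/6J strain and not DBA/2J, written 5′ to 3′ on the strand of the gene. The windows are chr6:77242227-77242476 (plus strand) for Lrrtm1, chr6:80018627-80018876 and chr6:80019393-80019642 (plus strand) for 2 starts of Lrrtm4, and chr10:64090256-64090505 (minus strand) for Lrrtm3. Capitals mark matches to the motifs named after them.
Lrrtm1: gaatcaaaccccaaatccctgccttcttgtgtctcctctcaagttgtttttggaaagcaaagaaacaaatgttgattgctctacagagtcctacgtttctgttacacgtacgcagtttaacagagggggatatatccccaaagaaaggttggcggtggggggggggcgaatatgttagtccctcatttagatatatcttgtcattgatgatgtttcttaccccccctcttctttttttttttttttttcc
Lrrtm4, upstream start: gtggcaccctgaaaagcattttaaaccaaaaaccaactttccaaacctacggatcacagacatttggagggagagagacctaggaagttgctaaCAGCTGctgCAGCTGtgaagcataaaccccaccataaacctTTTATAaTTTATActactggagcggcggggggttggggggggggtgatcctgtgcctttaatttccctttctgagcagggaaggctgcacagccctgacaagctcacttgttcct
Lrrtm4, downstream start: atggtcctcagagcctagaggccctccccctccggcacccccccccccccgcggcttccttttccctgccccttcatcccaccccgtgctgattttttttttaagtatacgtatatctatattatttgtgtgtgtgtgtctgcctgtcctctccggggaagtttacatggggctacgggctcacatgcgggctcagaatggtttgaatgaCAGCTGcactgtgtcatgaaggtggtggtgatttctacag
Lrrtm3: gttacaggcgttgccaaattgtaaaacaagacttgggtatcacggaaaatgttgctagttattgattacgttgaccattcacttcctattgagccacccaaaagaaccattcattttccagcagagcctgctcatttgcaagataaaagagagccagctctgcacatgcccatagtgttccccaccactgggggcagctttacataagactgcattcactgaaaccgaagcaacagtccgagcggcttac

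The motifs were searched on both strands, and no match overlapped another here. The TATA box was searched as TATAAA, which 12.4% of all 32851 windows of this length held. The E-box of neural helix-loop-helix factors was searched as CAGCTG, found in 13.0% of windows. Another E-box was searched as CACGTG, found in 6.02% of windows. The GC box was searched as GGGCGG, found in 32.7% of windows, and the cAMP response element as TGACGTCA, found in 1.55%. The upstream Lrrtm4 window held 2 TATA box matches, both on the opposite strand, and 2 matches to the first E-box, and the downstream window held 1 match to that E-box. The Lrrtm1 and Lrrtm3 windows held 0 matches to any of the motifs. CG pairs numbered 5 in the Lrrtm1 window, 3 and 8 in the Lrrtm4 windows and 6 in the Lrrtm3 window, against a median of 6 over all windows. The motifs were chosen with the sequences in view, and a match is a run of letters, not a shown binding site.

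Lrrtm4 was the LRRTM gene with the lowest values relative to controls over all its probesets. At 1437214_at it had 285 and 249 in fluoxetine pools, against 409 and 342 in control pools, and at 1455937_at 233 and 296, against 315 and 345. Both fluoxetine pools were below both control pools at both probesets. The log2 differences were -0.49 ± 0.12 (95% interval -0.81 to -0.17, limma adjusted p = 0.121) and -0.33 ± 0.14 (-0.68 to 0.03, adjusted p = 0.249). The size at 1455937_at rested on single arrays, at -0.15 without fluoxetine pool 1 and -0.50 without fluoxetine pool 2. The pools of a group differed by 0.13 to 0.35, so the separation at 1455937_at was about the size of the gap between the fluoxetine pools.

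Among markers of hippocampal principal cells, the granule cell genes lay in both directions, and their part in the Lrrtm4 values was not tested. Dsp, a desmosomal plaque gene, had 246 and 179 in fluoxetine pools, against 880 and 602 in control pools, and fell (log2 -1.79 ± 0.24, limma adjusted p = 0.0495). C1ql2, a secreted synapse organiser of mossy fibres, had 303 and 263 in fluoxetine pools, against 153 and 112 in control pools (log2 1.11 ± 0.17, adjusted p = 0.0636). A pair of other genes of the list, chosen after their values were seen, also had both fluoxetine pools below both controls. Calb1, a calcium buffer of granule cells and of part of CA1, was at log2 -0.45 ± 0.08 at its brightest probeset (adjusted p = 0.0771). Another Calb1 probeset, 1 of the 3 tested, did pass and fell by 1.16 on the log2 scale. Fibcd1 of CA1 was at -0.82 ± 0.25 (adjusted p = 0.162). The remaining genes of the list without overlap were Grik4, higher at 0.39 ± 0.14 (adjusted p = 0.210), and Neurod6, lower at -0.17 ± 0.09 (adjusted p = 0.314). Of the 10 markers 4 lay below 0 and 6 above 0, with a median log2 difference of 0.17. The groups did not overlap at 4 lower (40%) and 2 higher, against 32.7% lower over all 9030 genes at their brightest probeset. The 10 markers summed to 19806 to 21207 in fluoxetine pools and 20834 to 23119 in control pools, ranges that overlap.

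Lrrtm1 was read by 3 probesets that agreed in sign but not in size. At 1437746_at it had 115 and 92.9 in fluoxetine pools, against 151 and 142 in control pools, close to the minimum of 100, with a log2 difference of -0.50 ± 0.12 (95% interval -0.82 to -0.18, limma adjusted p = 0.117). At 1452624_at it had 266 and 265 in fluoxetine pools, against 343 and 303 in control pools (log2 -0.28 ± 0.09, -0.50 to -0.06, adjusted p = 0.162). At the brightest probeset, 1455883_a_at, it had 2229 and 2657 in fluoxetine pools, against 2855 and 2588 in control pools, so that fluoxetine pool 2 lay between the controls. There the log2 difference was -0.16 ± 0.11 (-0.46 to 0.14, adjusted p = 0.456), and it was -0.03 without fluoxetine pool 1 and -0.29 without fluoxetine pool 2. The groups thus separated at 2 of the 3 Lrrtm1 probesets.

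Lrrtm2, whose protein clusters neurexins and helps to hold AMPA receptors at the synapse, had 3 tested probesets. 1437787_at had 1322 and 1493 in fluoxetine pools, against 1203 and 1404 in control pools (log2 0.11 ± 0.11, limma adjusted p = 0.594). 1455489_at had 534 and 571 in fluoxetine pools, against 562 and 503 in control pools, and 1456637_at had 362 and 402, against 360 and 399. The groups overlapped at all 3, and the 95% intervals together spanned -0.24 to 0.40. At all 3 the gap between the pools of a group, 0.10 to 0.22, exceeded the difference between groups.

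Lrrtm3 had 4 tested probesets with log2 differences from -0.05 to 0.25. 1434759_at had 583 and 587 in fluoxetine pools, against 495 and 621 in control pools, and 1434761_at had 174 and 174, against 169 and 193. 1440112_at had 146 and 171 in fluoxetine pools, against 128 and 164 in control pools. At these 3 the groups overlapped. At 1434760_at the fluoxetine pools, 139 and 118, were just above the control pools, 99.4 and 117 (log2 0.25 ± 0.12, 95% interval -0.08 to 0.57, limma adjusted p = 0.315).

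The alpha-catenin genes around the LRRTM genes encode linkers between cadherins and actin, and neither that was tested passed. Ctnna2, which holds Lrrtm1, had 825 and 817 in fluoxetine pools, against 842 and 984 in control pools (log2 -0.15 ± 0.10, limma adjusted p = 0.422). Ctnna1, which holds Lrrtm2, had 2324 and 2311 in fluoxetine pools, against 2019 and 2015 in control pools (log2 0.20 ± 0.06, adjusted p = 0.171). Ctnna3, which holds Lrrtm3, did not reach the minimum and was not tested.

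Ratios taken within an array remove any difference that scales a whole array. The pairs were chosen after their values were seen, so the ratios are a description, and an exact permutation test of 2 against 2 arrays could not give a two-sided p below 0.333. With the mean of a gene's tested probesets and the control mean set to 0, the log2 ratio of Nlgn3 to Nlgn1 was -0.44 and -0.55 in fluoxetine arrays, against 0.01 and -0.01 in control arrays. The log2 ratio of Nlgn3 to Nlgn2 was -0.29 and -0.39 in fluoxetine arrays, against -0.03 and 0.03 in control arrays. The ratio of Lrrtm4 to Lrrtm2 was -0.43 and -0.50 in fluoxetine arrays, against 0.07 and -0.07 in control arrays. The ratio of Lrrtm1 to Lrrtm2 was -0.29 and -0.45 in fluoxetine arrays, against 0.10 and -0.10 in control arrays. Against Lrrtm3 the control arrays spread more widely, at 0.17 and -0.17 for Lrrtm4 and 0.21 and -0.21 for Lrrtm1. In all 6 ratios both fluoxetine arrays were below both control arrays. The ratios share their numerators, Nlgn3, Lrrtm4 and Lrrtm1, which were picked for their lower values. This separation thus followed largely from the choice and adds no support.

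**Figure D3:**
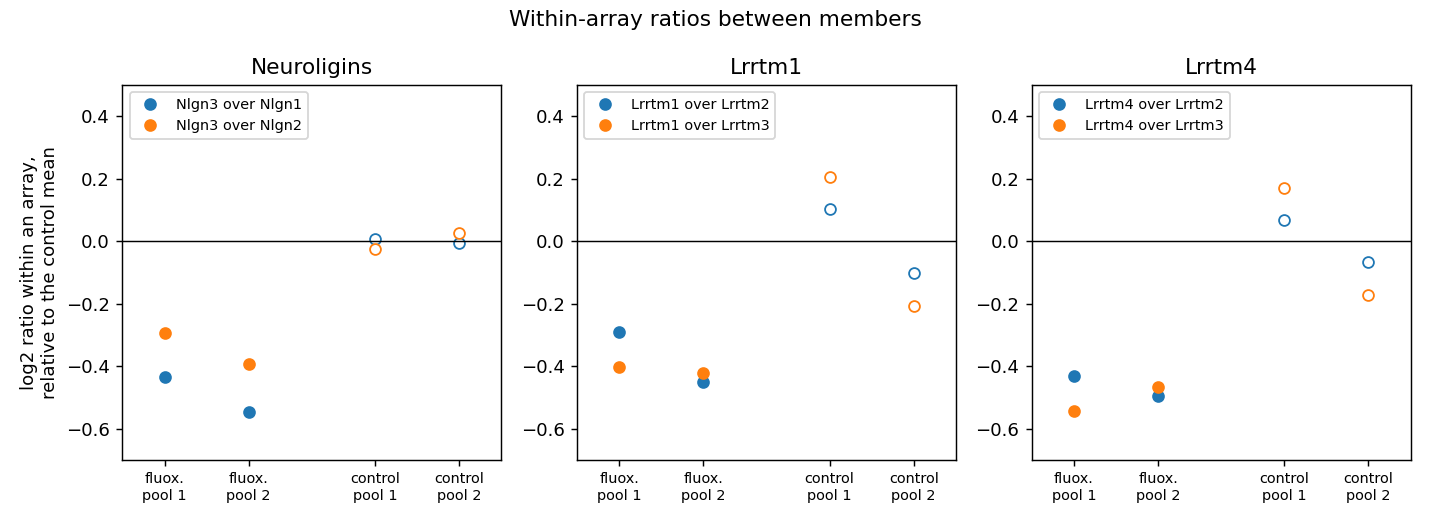
Log2 ratio between genes within an array (mean over tested probesets, y axis, relative to the control mean) in the 2 fluoxetine pools (filled, left) and the 2 control pools (open, right). Nlgn3 over Nlgn1 lies at -0.44 and -0.55 in the fluoxetine arrays, and the control arrays spread most for ratios to Lrrtm3.

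The wider pathway was described from lists of neurexin ligands, presynaptic and postsynaptic scaffolds and other synaptic adhesion genes, each gene at its brightest tested probeset. Over all 9030 genes so counted, 1.86% passed by limma, 22.0% were at an unadjusted p under 0.05, 56.3% had groups that did not overlap (32.7% lower) and the median log2 difference was -0.03. Of 16 tested neurexin ligand genes 0 passed by limma, with 1 at an unadjusted p under 0.05, and the median was -0.08. C1ql2, given above, was the most distant of these. Cbln4, a cerebellin that bridges neurexins to postsynaptic receptors, had 233 and 193 in fluoxetine pools, against 221 and 381 in control pools (log2 -0.45 ± 0.28, adjusted p = 0.395). Car10, a secreted neurexin partner, was at log2 -0.26 ± 0.17 (adjusted p = 0.440), and both overlapped between groups.

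Of 17 tested presynaptic scaffold genes 1 rose and 0 fell. Rimbp2, which tethers calcium channels to the release machinery, had 448 and 425 in fluoxetine pools, against 267 and 278 in control pools (log2 0.68 ± 0.07, limma adjusted p = 0.0380). Most of the others lay the other way: 10 of the 17 had both fluoxetine pools below both controls, and the median was -0.10. Lin7b, which binds CASK, was at log2 -0.31 ± 0.10 (adjusted p = 0.168), Cntnap2, a neurexin-like adhesion gene, at -0.31 ± 0.17 (adjusted p = 0.348) and Rims1, an active zone organiser, at -0.29 ± 0.07 (adjusted p = 0.111).

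Of 17 tested postsynaptic partner genes 0 passed by limma, with 3 at an unadjusted p under 0.05, and the median was -0.08. The scaffold gene Magi1 was at log2 -0.35 ± 0.08 (adjusted p = 0.111), the PSD-95 binding Dlgap1 at -0.30 ± 0.08 (adjusted p = 0.120) and Magi3 at -0.22 ± 0.07 (adjusted p = 0.158). Of 7 tested heparan sulfate proteoglycan genes 0 passed by limma, with 1 at an unadjusted p under 0.05, and here the median was 0.17. Gpc1 was at log2 0.35 ± 0.15 (adjusted p = 0.251), Sdc2 at 0.30 ± 0.07 (adjusted p = 0.108) and Sdc4 at 0.19 ± 0.45 (adjusted p = 0.836), the last with control pools far apart.

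Of 19 other leucine-rich repeat adhesion genes 0 passed by limma, with 8 at an unadjusted p under 0.05, and 13 had both fluoxetine pools below both controls. Their median was -0.17. Lingo1, a brake on axon growth, lay the other way, at 1886 and 2049 in fluoxetine pools, against 1286 and 1387 in control pools (log2 0.56 ± 0.08, adjusted p = 0.0594). Lrrn3 had 932 and 1128 in fluoxetine pools, against 1524 and 1482 in control pools (log2 -0.55 ± 0.11, adjusted p = 0.0883), and Lrrn1 was at log2 -0.45 ± 0.11 (adjusted p = 0.119).

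Of 12 tested genes of presynaptic receptor phosphatases, netrin-Gs, teneurins and their ligands 0 rose and 1 fell. Il1rap, a receptor subunit for interleukin 1 that also binds the presynaptic phosphatase PTPdelta, had 414 and 413 in fluoxetine pools, against 743 and 668 in control pools (log2 -0.77 ± 0.08, limma adjusted p = 0.0380). Only 1 of its 3 tested probesets passed, the others being at -0.47 and 0.19. Ptprf, a receptor phosphatase, was at log2 0.36 ± 0.08 (adjusted p = 0.0967), Il1rapl1 at -0.36 ± 0.06 (adjusted p = 0.0748) and Tenm1 at -0.28 ± 0.09 (adjusted p = 0.163), and the list median was -0.16. The 3 tested SynCAM adhesion genes gave 0 calls by limma and 0 at an unadjusted p under 0.05, with Cadm3 at 0.31 ± 0.12, Cadm1 at -0.22 ± 0.09 and Cadm4 at -0.04 ± 0.10. Over all 180 tested probesets of these partner genes, 1 rose and 1 fell, and the groups did not overlap at 111, 81 lower and 30 higher (45.0% lower, against 34.2% of all tested probesets).

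**Figure D4:**
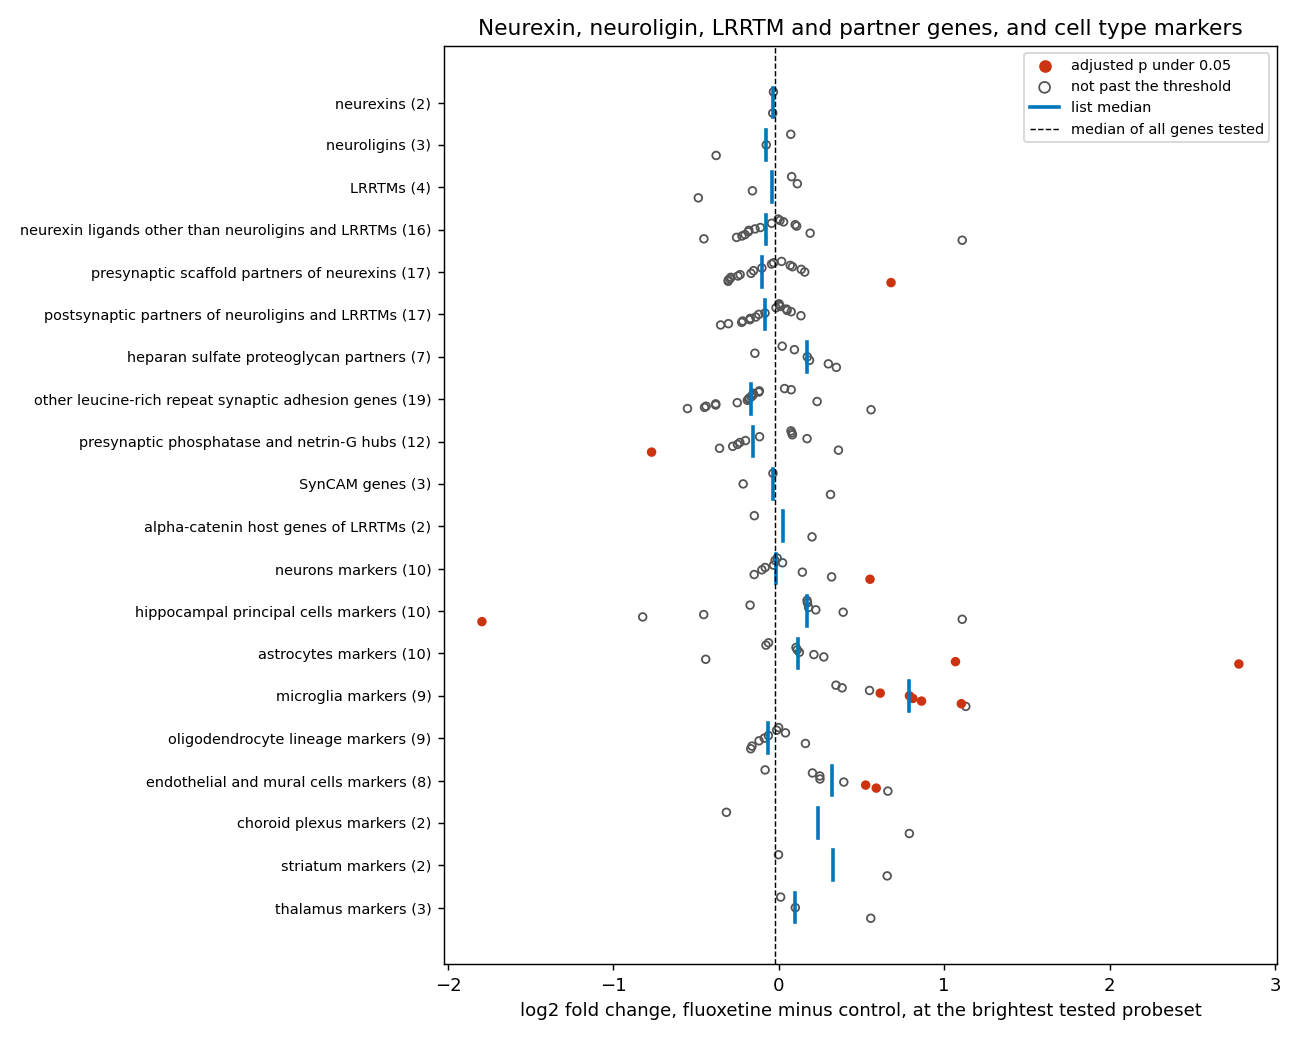
Log2 fold change (fluoxetine minus control, x axis) of each gene at its brightest tested probeset, by list, with the number of tested genes in brackets; blue bars are list medians and the dashed line is the median of all 9030 genes. No neurexin, neuroligin or LRRTM gene passed the threshold, while Rimbp2 (0.68) and Il1rap (-0.77) did among partner genes.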

How the data were processed

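Each deposited value is an intensity, linear and not logged, that the authors made in ArrayAssist with the GCRMA algorithm, per the labels; its version is not given here. That algorithm adjusts background for probe sequence and draws dim probesets to a common floor. Values were taken to log2 without a pseudocount. The 64 Affymetrix control probesets were dropped from the 45101, and the 16938 that reached 100 in at least 2 of 4 arrays were tested. Genes came from the platform annotation: 34958 probesets had 1 symbol, 932 several and 9211 none, and 0 symbols changed when matched by gene number to the RefSeq table.

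Groups, from the sample titles, were compared in R 4.3.3 with limma 3.58.1 (default lmFit and eBayes, group as the only term). Tests were two-sided, p-values were adjusted by Benjamini-Hochberg over every tested probeset, and 0.05 was the threshold. Errors are limma standard errors, intervals are at 95%, and means are geometric. On simulated data with the spread that limma fitted, 200 of 16938 probesets were changed per run. The procedure recovered 6% of changes of log2 0.5 and 79.2% of changes of log2 1. Recovery depends on how many probesets change, so these rates need not hold in the real data. All 21 tested member probesets differed by under 0.5, so a count of 0 called says little about the absence of such changes. The number of arrays limits the precision. p-values measure the spread between pools, which limma draws toward a value shared by all tested probesets. Where the pools of a group nearly coincided, as at Nlgn3, the standard error came mainly from that shared value. Alternatives were other filters, normalizations, variance models and left-out arrays, and the pool number as a block. Named genes were all members, and of each partner list the called genes and the 3 widest others. The members and lists were chosen with earlier results of these data known. RefSeq promoter sequences were kept for 6 of the 9 genes. The chromosome that holds Lrrtm2 was left out before this count, so the absence of Lrrtm2 does not mean that it has no sequence.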

Additional observations from a re-analysis of the deposited data

How the results depend on the processing

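Over 15 alternatives and the 21 tested probesets, 300 of 313 values kept their sign. In 5 of these settings, no filter and each array left out, 0 of all probesets were called, so a side of the threshold kept there says nothing. The count of called neurexin, neuroligin and LRRTM probesets was 0 under each alternative except 1. With a minimum of 100 in all 4 arrays, where 16022 probesets were tested, the count was 1, Nlgn3 at 1453756_at. The cause of this change was not tested. It was 0 with each array left out. At 2-fold it was 0 in every setting run. The log2 differences of Nlgn3 stayed between -0.47 and -0.34, with adjusted p from 0.0498 to 0.243. The sign turned 13 times, at 9 probesets whose absolute difference was 0.13 or less. For Nrxn2 this was under quantile normalization (0.00488). The others turned with an array left out, where the log2 difference ran from -0.0249 to 0.134 (Lrrtm2 1455489_at), -0.0673 to 0.0849 (Lrrtm2 1456637_at), -0.0860 to 0.241 (Lrrtm3 1434759_at), -0.148 to 0.0436 (Lrrtm3 1434761_at), -0.0560 to 0.308 (Lrrtm3 1440112_at), -0.0976 to 0.0327 (Nrxn3 1433788_at), -0.0543 to 0.0753 (Nrxn3 1438193_at) and -0.114 to 0.119 (Nrxn3 1456137_at). Without a turn of sign, leaving out an array moved the difference by over 1.5 times at the 3 probesets named with such values in the results and at Lrrtm2 1437787_at (0.000376 to 0.224), Lrrtm3 1434760_at (0.131 to 0.367), Nlgn1 1437160_at (0.0114 to 0.134) and Nlgn2 1455143_at (-0.131 to -0.0206). The neuron marker median was -0.02, and 0.0112 with the median of each gene's probesets in place of the brightest.

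Over all probesets 291 were called, 163 with a minimum of 100 in at least 1 array, 0 with no filter, 532 with trend and robust settings and 0 with any one array left out, where fewer arrays entered; for the other settings the cause was not tested. The pool numbers pair no animals in the labels: deviations of same-numbered pools correlated at 0.14 over tested probesets, and with the replicate block 9 probesets were called, none of them a neurexin, neuroligin or LRRTM probeset. Probesets near 100 and below, such as Lrrtm1 1437746_at, are limited by the compression of dim signal.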
